A study of Canis lupus familiaris with 10 samples.

Results

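WASL and 9 further genes of actin nucleation were followed on Affymetrix Canine_2 arrays of hemangiosarcoma cells from 10 dogs. All probe sets named for WASL, WASF1, WASF2, WASF3, ACTR2, ACTR3, ARPC2, ARPC5, DIAPH1 and CTTN were taken. This gave 20 of the 42924 probe sets besides the controls, for 9 of the 15115 gene symbols on the array. DIAPH1 is named only, since no probe set carried its name in the annotation used here. WASL was chosen by its difference between breeds on these same arrays, and the other genes by their role beside it. The breed values of both WASL probe sets are therefore given as a description, with no test.

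Actin filaments seldom start by themselves and need nucleators. The ARP2/3 complex, built on the actin-related proteins ACTR2 and ACTR3 with the ARPC subunits, starts a new filament as a branch on the side of an older one. It is switched on by nucleation promoters, among them N-WASP (the product of WASL), which answers to CDC42, and the WAVE proteins (WASF1 to WASF3), which act below RAC. Cortactin (CTTN) stabilizes the branches, while formins such as DIAPH1 make unbranched filaments. Hemangiosarcoma is a tumor with features of endothelial cells, in which this machinery drives lamellipodia, junction repair and the uptake of membrane.

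The Golden Retriever group held 6 dogs (ChadG4, ChadG6, ChadG8, Frog, Journey and Tucker), of which Frog and Journey were distant relatives by the methods. DD1 was a Golden mix, an F1 dog by the methods, and was left out of the breed fit. The non-Golden Retriever group held 3 dogs, 1 of each of 3 breeds that the labels spell Portugese Water Dog (ChadP9), Dalmation (Dal4) and Rottweiler (Joey). The breed entry of Joey repeated the name of the dog, so its breed was taken from the title. By the study's record ChadG6, Frog and Journey were female and all other dogs male. Every female was thus a Golden Retriever, and sex is not balanced between the breed groups. All groups share the disease, the spleen as the site of the tumor, and culture at the earliest passages that could be had, with no untransformed cells beside them. Each dog gave 1 culture and 1 array, so each SD is a spread between dogs that includes any error of culture and array.

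The deposited values are log2 RMA signals, in which 1 unit is a doubling. A probe set was tested when it lay above the 40th percentile of its array, 5.02 to 5.16 log2 units, on at least 3 arrays, and 26891 did. Breed differences are Golden Retriever minus non-Golden Retriever by limma, 6 dogs against 3, with Benjamini-Hochberg adjustment over all tested probe sets. At an adjusted p under 0.05, 1 probe set was called (0.00372%), and its gene, DLA88, was picked out after its values were seen. At an unadjusted p under 0.05, 1699 were called (6.32%), and at 659 (2.45%) the arrays of both groups did not overlap. The median difference over all tested probe sets was -0.017.

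Endothelial markers were weak in these cultures. Of 10 endothelial markers 5 passed the filter (CDH5, KDR, TIE1, ERG and CLDN5), while PECAM1, TEK, ESAM and EMCN were above the 40th percentile on 0 of 10 arrays and VWF on 2. The log2 of the summed endothelial signal was 8.60 to 9.19 in Golden Retrievers and 8.46 to 9.36 in non-Golden Retrievers, and that of 5 fibroblast markers was 15.68 to 16.05 in Golden Retrievers and 15.11 to 15.83 in non-Golden Retrievers. For 9 leukocyte markers it was 9.17 to 9.70 in Golden Retrievers and 9.02 to 9.44 in non-Golden Retrievers, and for 5 smooth muscle markers 13.02 to 15.26 in Golden Retrievers and 14.12 to 15.26 in non-Golden Retrievers. These sums do not show how far single markers differed between cultures. The smooth muscle marker ACTA2 had 6.39 in ChadG4 and 9.73 in Dal4, against 12.69 to 14.13 in the other dogs. Another, CNN1, ran from 5.11 in Joey to 11.02 in ChadP9. The fibroblast marker LUM had 4.398 in Dal4, against 12.47 to 14.08 in the other dogs. Dal4, a male by the study's record, had a signal of 2.95 at 1 of the 3 probe sets named for EIF2S3, against 3.08 to 3.33 in the 3 female dogs and 10.15 to 10.60 in the other 6 males. The control probe sets for beta-actin set Tucker and Joey apart. The signal at the 3′ end of the message exceeded that at the 5′ end by 1.27 log2 units in Tucker and 0.83 in Joey, against 0.0053 to 0.60 in the other 8 dogs. A different 5′ probe set gave 2.38 in Tucker and 2.27 in Joey, against 1.22 to 1.69 in the others. For GAPDH the gap was 0.62 in Tucker but 0.23 in Joey, within the 0.025 to 0.26 of the other dogs. This 3′ to 5′ gap of beta-actin is given below wherever it moved with a result.

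WASL signals lay lower in Golden Retriever cells at both of its probe sets. At the dimmer probe set, whose difference chose the gene, the Golden Retriever signals were 5.71 in ChadG4, 5.34 in ChadG6, 5.47 in ChadG8, 5.62 in Frog, 5.44 in Journey and 5.19 in Tucker. The non-Golden Retriever signals were 5.96 in ChadP9, 6.23 in Dal4 and 6.23 in Joey. The groups did not overlap, and the means were 5.46 ± 0.19 in 6 Golden Retrievers and 6.14 ± 0.15 in 3 non-Golden Retrievers (both SD), a difference of -0.68. The Golden Retriever signals are dim, since the 40th percentiles of their arrays, 5.04 to 5.16, lie just below them. The non-Golden Retriever signals were also low, but lay above the medians of their arrays, 5.78 to 5.82. With every cell type pooled on an array, fewer cells of a type and less RNA per cell cannot be told apart.

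At the brighter probe set the signals were 8.46 in ChadG4, 8.69 in ChadG6, 8.40 in ChadG8, 8.33 in Frog, 8.29 in Journey and 9.14 in Tucker. The non-Golden Retrievers had 8.98 in ChadP9, 8.87 in Dal4 and 9.15 in Joey. Here 5 of 6 Golden Retrievers lay below every non-Golden Retriever, and Tucker stood among the non-Golden Retrievers. The means were 8.55 ± 0.32 in 6 Golden Retrievers and 9.003 ± 0.14 in 3 non-Golden Retrievers (both SD), a difference of -0.45. Without Tucker the difference was -0.57, and without Dal4 it was -0.52 at the brighter and -0.63 at the dimmer probe set. Over the alternatives tried the brighter probe set ran from -0.57 to -0.34 and the dimmer from -0.77 to -0.40, with the sign kept in each. Since WASL was chosen by this difference, the kept sign is a description only. The value of -0.34 came with the 3 female dogs, all Golden Retrievers, left out.

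**Figure D1:**
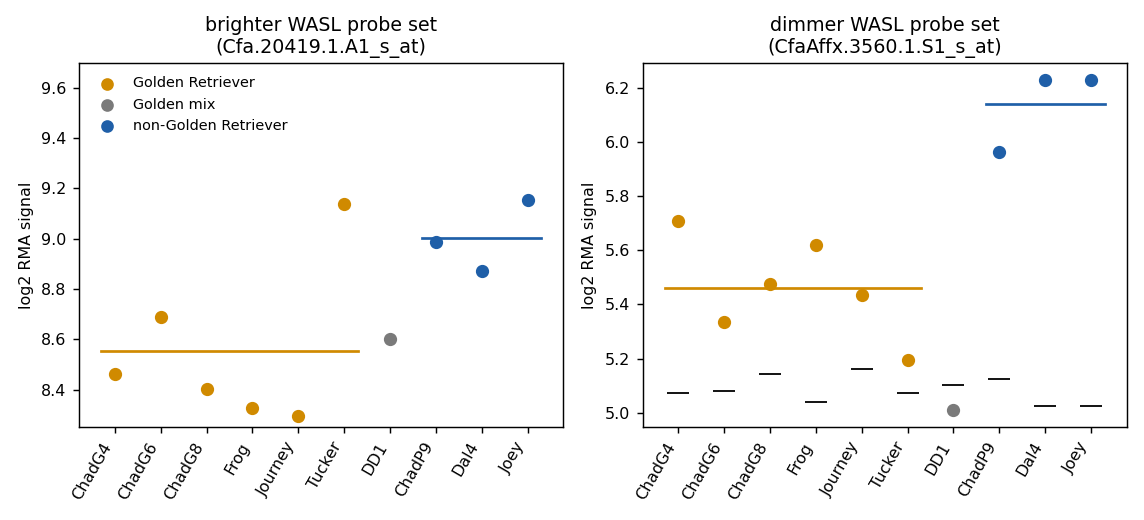
Log2 RMA signal of the brighter (left) and dimmer (right) WASL probe set on each of 10 arrays, with Golden Retrievers first, then the Golden mix, then non-Golden Retrievers. Colored lines are group means and black ticks at right are the 40th percentile of each array; the groups are apart at right, while Tucker lies with the non-Golden Retrievers at left.

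The WASL probe sets did not rank the dogs alike. Over 10 arrays Pearson's r between them was 0.37 and Spearman's rho 0.28 (permutation test, p = 0.290 and p = 0.431, adjusted p = 0.407 and 0.470 over 12 pairs of probe sets of 1 gene). Within the 6 Golden Retrievers r was -0.76, and without Tucker and Joey, the arrays farthest from the median of the brighter probe set, it was 0.50. Tucker was the highest Golden Retriever at the brighter probe set and the lowest at the dimmer. DD1 also split them. At the brighter probe set it had 8.60, within the Golden Retriever range, and at the dimmer it had 5.01, below all 9 purebred dogs and under the 40th percentile of its own array, 5.10.

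The WAVE genes, the other promoters followed here, had breed differences closer to 0 than WASL. WASL was chosen by its difference, so this contrast holds that choice. WASF1, best known for its part in neurons, had at its brighter probe set a lowest, median and highest signal of 7.12, 7.22 and 7.57 in Golden Retrievers, and 7.29 to 7.38 in non-Golden Retrievers. The groups overlapped, with a difference of -0.051 (SE 0.14, limma adjusted p = 0.966). Its dimmer probe set ran from 5.33 to 6.65 in Golden Retrievers and from 5.75 to 6.11 in non-Golden Retrievers, with a difference of 0.096 (SE 0.27, limma adjusted p = 0.968). ChadG4 was the lowest and Journey the highest of the 10 arrays at this probe set, so the Golden Retrievers spanned all other dogs.

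WASF2, the WAVE protein of most tissues, had at its tested probe set a lowest, median and highest signal of 6.10, 6.21 and 6.56 in Golden Retrievers, and 6.25 to 6.54 in non-Golden Retrievers. Its difference was -0.097 (SE 0.15, limma adjusted p = 0.931). A second WASF2 probe set, at 3.57 to 4.10 on all purebred arrays, and both WASF3 probe sets, at 4.46 to 4.91 and 2.95 to 3.44, were above the 40th percentile on 0 of 10 arrays and were not tested. WASF3 therefore has only an upper bound on its signal here.

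Among the ARP2/3 subunits, ACTR3 and ARPC2 had nearly equal means in both breed groups. ACTR3 had a lowest, median and highest signal of 12.28, 12.46 and 12.50 in Golden Retrievers, and 12.29 to 12.52 in non-Golden Retrievers. Its difference was -0.0095 (SE 0.12, limma adjusted p = 0.992), and its SD over 10 arrays, 0.094, stood at the 0.959 percentile of all tested probe sets. ARPC2, a core subunit that touches the mother filament, had 13.07, 13.36 and 13.45 in Golden Retrievers, and 13.23 to 13.56 in non-Golden Retrievers. Its difference was -0.016 (SE 0.14, limma adjusted p = 0.990). The signs of these small differences were not stable, and both turned when ChadG4 or ChadP9 was left out.

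ARPC5, a subunit at the edge of the complex, was read by 2 tested probe sets. At the brighter the lowest, median and highest signals were 11.47, 12.03 and 12.39 in Golden Retrievers, and the range was 11.73 to 12.50 in non-Golden Retrievers. The differences were -0.029 (SE 0.24, limma adjusted p = 0.990) at the brighter and 0.10 (SE 0.22, limma adjusted p = 0.956) at the dimmer probe set. Both probe sets were lowest in Tucker and highest in ChadP9, and ranked the dogs nearly alike (r = 0.95, rho = 0.93). The third ARPC5 probe set, at 3.38 to 3.97, was above the 40th percentile on 0 of 10 arrays.

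ACTR2 varied most from dog to dog among these 4 subunits. Of the other subunits on the array, ARPC4 and ARPC1B varied more at their brightest probe sets, with SDs over 10 arrays of 0.47 and 0.42. At the brightest ACTR2 probe set the Golden Retrievers had 11.82 in ChadG4, 11.59 in ChadG6, 11.51 in ChadG8, 11.78 in Frog, 11.23 in Journey and 10.70 in Tucker. The non-Golden Retrievers had 11.76 in ChadP9, 11.86 in Dal4 and 11.33 in Joey. Tucker was the lowest of 10 arrays at this and at both other ACTR2 probe sets, which ran from 9.45 to 11.44 and from 8.87 to 11.00 over the purebred dogs. The SDs of ACTR2 over 10 arrays were 0.36, 0.63 and 0.67, at the 54.9, 85.9 and 87.9 percentiles of all tested probe sets.

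The breed differences of ACTR2 were -0.21 (SE 0.26, limma adjusted p = 0.904), -0.34 (SE 0.43, limma adjusted p = 0.912) and -0.41 (SE 0.46, limma adjusted p = 0.894), in the same order. They shrank to -0.062, -0.11 and -0.17 without Tucker and to -0.10, -0.085 and -0.15 without Dal4, and widened to -0.37, -0.75 and -0.84 without Joey. The 3 probe sets ranked the dogs in nearly the same order, with r of 0.94, 0.95 and 1.00 in their 3 pairs.

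**Figure D2:**
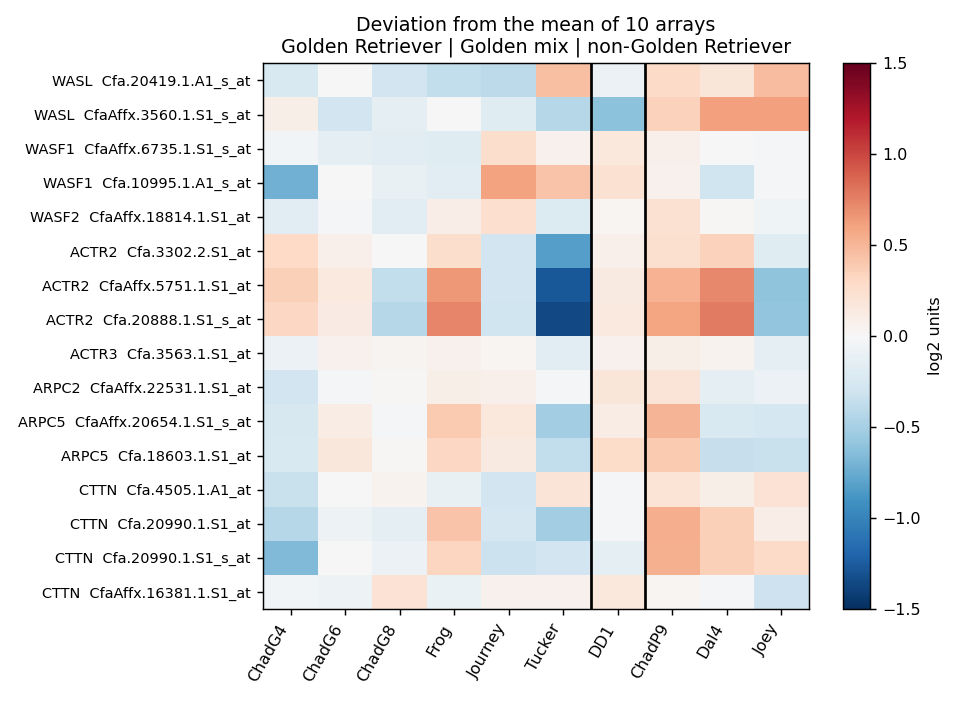
Deviation of each tested probe set of the nucleation genes from its own mean over 10 arrays, in log2 units, with dogs in columns and black lines between the breed groups. The ACTR2 rows are deepest blue in Tucker and the WASL rows turn red in the non-Golden Retrievers, while the ACTR3 and ARPC2 rows stay pale.

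The ACTR2, ACTR3 and ARPC5 signals moved with the beta-actin gap. This relation was looked at after the values were seen. For ACTR3, r with the gap over 10 arrays was -0.88 and rho -0.90 (permutation test, p = 5.7e-04 and p = 7.3e-04, adjusted p = 0.00491 and 0.0117 over 16 probe sets). It was -0.65 without Tucker and Joey, the arrays farthest from the median gap, and -0.84 within the 6 Golden Retrievers. For the brightest ACTR2 probe set r was -0.81 and rho -0.56 (permutation test, p = 0.00868 and p = 0.0965, adjusted p = 0.0278 and 0.172), and r was -0.29 without Tucker and Joey, so this relation rests on those arrays. The other ACTR2 probe sets had r of -0.89 and -0.90, and still -0.63 and -0.68 without them.

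For the brighter ARPC5 probe set r with the gap was -0.84 and rho -0.88 (permutation test, p = 0.00187 and p = 0.00165, adjusted p = 0.00748 and 0.0132), and r was -0.69 without Tucker and Joey. In all, 8 of the 16 tested probe sets had an r of -0.7 or lower with the gap, the other 3 being the dimmer ARPC5 probe set, WASF2 and a CTTN probe set. Over all tested probe sets 3.38% did. The gap averaged 0.54 ± 0.39 in 6 Golden Retrievers and 0.36 ± 0.43 in 3 non-Golden Retrievers (both SD), and its part in the results was not tested. WASL at its brighter probe set had an r of 0.45 with the gap, of 0.88 within the 6 Golden Retrievers and of -0.50 without Tucker and Joey, so the sign of this relation turned (permutation test on all 10 arrays, p = 0.195, adjusted p = 0.342).

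**Figure D3:**
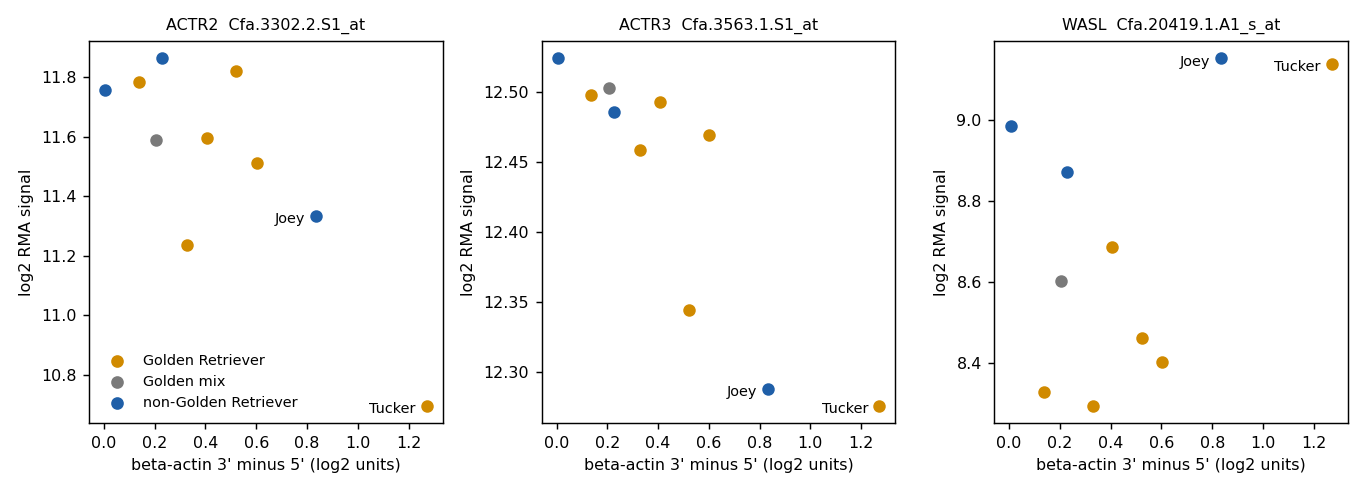
Log2 RMA signal of ACTR2, ACTR3 and the brighter WASL probe set against the 3′ minus 5′ gap of the beta-actin control probe sets, in log2 units, with 1 point for each of 10 arrays colored by breed group. Tucker and Joey, at gaps of 1.27 and 0.83, lie low at ACTR2 and ACTR3 and high at WASL.

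The subunits of the complex were set against each other in 6 pairs. ACTR3 and ARPC5 had r = 0.81 and rho = 0.84 over 10 arrays (permutation test, p = 0.00179 and p = 0.00366, adjusted p = 0.0107 and 0.0110). Within the 6 Golden Retrievers r was 0.93. ARPC2 and ARPC5 had r = 0.71 and rho = 0.84 (permutation test, p = 0.0202 and p = 0.00338, adjusted p = 0.0607 and 0.0110), with r = 0.65 without the 2 arrays farthest from the median of ARPC2. ACTR3 and ARPC2 had r = 0.58 and rho = 0.73 (permutation test, p = 0.0788 and p = 0.0198, adjusted p = 0.118 and 0.0397). Without Tucker and Joey r was 0.66 for ACTR3 with ARPC5, 0.84 for ARPC2 with ARPC5 and 0.82 for ACTR3 with ARPC2, so the order of the pairs depends on those arrays. ACTR2 and ACTR3, the pair from which the new filament grows, had r = 0.63 and rho = 0.49 (permutation test, p = 0.0458 and p = 0.154, adjusted p = 0.0916 and 0.231), and r = -0.085 without Tucker and Joey. ACTR3 and ARPC5 both moved with the beta-actin gap, as given above.

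Cortactin (CTTN), which binds both the ARP2/3 complex and the filament, had lower mean signals in Golden Retrievers at 3 of its 4 probe sets. At the brightest the Golden Retrievers had 12.24 in ChadG4, 12.56 in ChadG6, 12.63 in ChadG8, 12.46 in Frog, 12.28 in Journey and 12.76 in Tucker. The non-Golden Retrievers had 12.77 in ChadP9, 12.66 in Dal4 and 12.79 in Joey. Thus 5 of 6 Golden Retrievers lay below every non-Golden Retriever, with Tucker again the exception, and the difference was -0.25 (SE 0.15, limma adjusted p = 0.788).

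A dimmer CTTN probe set had a lowest, median and highest signal of 8.43, 8.91 and 9.42 in Golden Retrievers, and 9.38 to 9.62 in non-Golden Retrievers. Its difference was -0.57 (SE 0.20, limma adjusted p = 0.774). A related probe set had 8.79, 9.13 and 9.75 in Golden Retrievers and 9.42 to 9.86 in non-Golden Retrievers, with a difference of -0.49 (SE 0.21, limma adjusted p = 0.774). At both, 5 of 6 Golden Retrievers again lay below every non-Golden Retriever, and here the exception was Frog, not Tucker. The IDs of this pair name the same source sequence, so they are not separate evidence. The dimmest probe set, at 5.57 to 5.89 in Golden Retrievers and 5.36 to 5.70 in non-Golden Retrievers, had a difference of 0.12 (SE 0.13, limma adjusted p = 0.891) and had r of -0.34 to -0.13 with the other 3.

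Over the 14 tested probe sets besides those of WASL, 0 passed an adjusted p under 0.05 by limma, where 0.00372% of all tested probe sets did, and the methods' t-test also gave 0. With an unadjusted p under 0.05, 2 of 14 were called, both of CTTN, against 6.32% of all. At 0 of 14 were the groups apart, against 2.45% of all. Of these probe sets 11 had a lower mean in Golden Retrievers and 3 a higher one, with a median difference of -0.074. With 1 probe set per gene, all 7 tested genes besides WASL had a lower mean, with a median of -0.051, where 53.3% of 11143 genes did and their median was -0.018. WASF1 crossed to 0.0092 when the arrays were quantile normalized again.

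**Figure D4:**
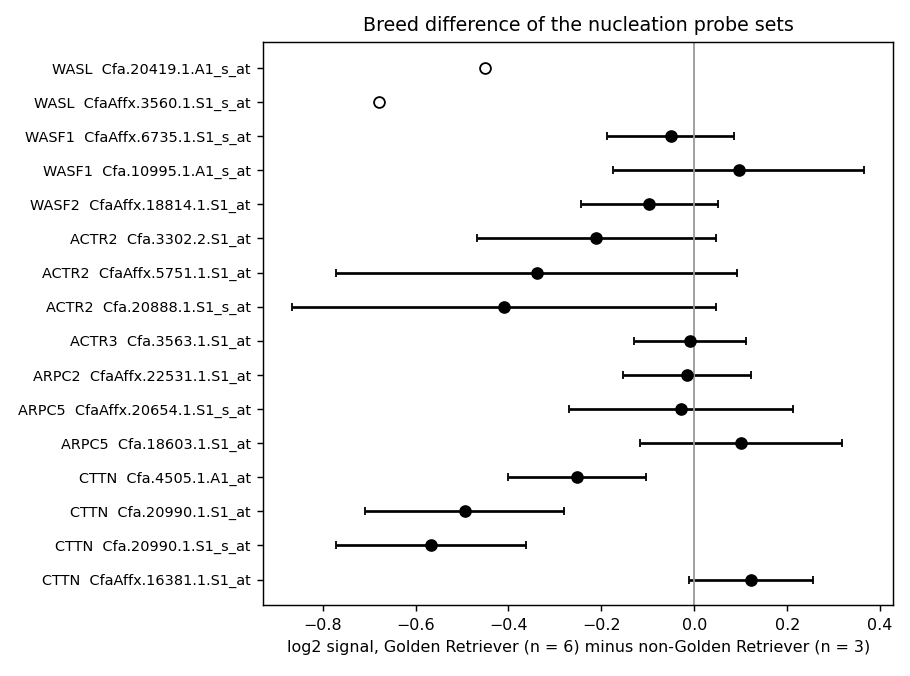
Breed difference of the 16 tested probe sets of the nucleation genes, as log2 signal in Golden Retrievers (n = 6) minus non-Golden Retrievers (n = 3), with bars of 1 SE from limma. WASL, chosen by this difference, is shown open and without bars; CTTN has 3 probe sets below 0 and the bars of the ARP2/3 subunits ACTR3, ARPC2 and ARPC5 span 0.

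WASL was then set against the 7 other genes with a tested probe set, over all 10 arrays and with the brightest probe set of each gene. CTTN moved with it. For this pair r was 0.83 and rho 0.85 (permutation test, p = 0.00321 and p = 0.00283, adjusted p = 0.0225 and 0.0198 over 7 relations). Both had lower means in Golden Retrievers, so the pooled value holds the breed contrast by which WASL was chosen. Within the 6 Golden Retrievers r was 0.71, and without Joey and Tucker, the arrays farthest from the WASL median, it was 0.75.

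The pair of WASL and CTTN depended on the probe sets read. With the dimmer WASL probe set r was 0.28 (adjusted p = 0.904, permutation test), and with the mean of all tested probe sets of each gene it was 0.51 (adjusted p = 0.730, permutation test). Leaving out 1 dog at a time kept r at 0.79 to 0.91, and in 4 of 10 cases the adjusted p stayed under 0.05 (permutation test). It did not without ChadG6, Journey, Tucker, ChadP9, Dal4 or Joey, where the highest was 0.0771 by permutation.

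**Figure D5:**
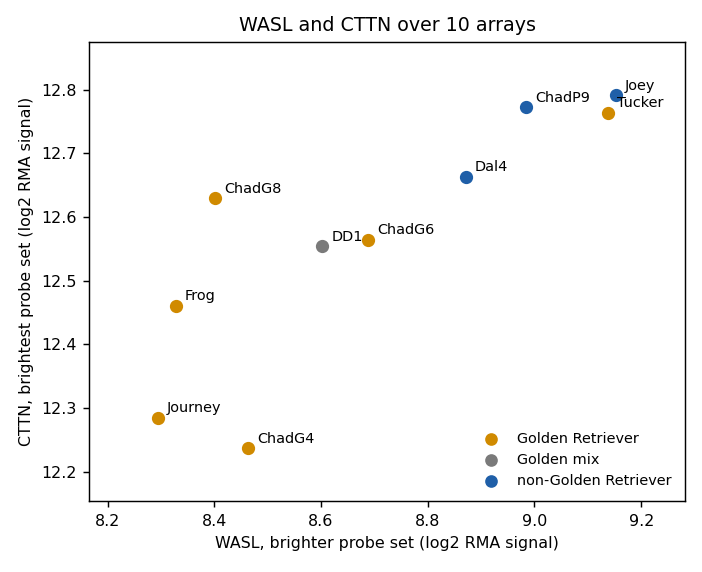
Log2 RMA signal of the brightest CTTN probe set against the brighter WASL probe set on 10 arrays, with each point named by its dog and colored by breed group. The non-Golden Retrievers and Tucker hold the upper right corner, and r over all arrays is 0.83.

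None of the other 6 relations passed the adjusted test. With WASL the r was -0.47 for ACTR3, -0.43 for ARPC5, -0.36 for ACTR2, -0.23 for WASF2, -0.077 for ARPC2 and 0.12 for WASF1 (permutation test, adjusted p of 0.505 to 0.834). Without Tucker and Joey these were 0.41 for ACTR3, 0.089 for ARPC5, 0.51 for ACTR2, 0.16 for WASF2, 0.10 for ARPC2 and 0.086 for WASF1. Leaving out the arrays of widest beta-actin gap thus turned the sign against all 4 ARP2/3 subunits, and the part of the gap in this was not tested.

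The genes most like WASL over the 10 arrays, by Pearson's r with its brighter probe set among 11142 genes, were CWC25 (a spliceosome factor, r = 0.92), LARP1 (which binds mRNAs of the translation machinery, r = 0.92), ZMYND11 (a chromatin reader, r = 0.91), MAP3K6 (a stress kinase, r = 0.90) and EIF5A2 (a translation factor, r = 0.90). CTTN was 29th in that order. The most opposite were WDR54 (r = -0.94), TKT (transketolase of the pentose phosphate pathway, r = -0.90), PVR (an adhesion receptor, r = -0.89), CENPA (the centromeric histone, r = -0.88) and REM1 (a small GTPase, r = -0.87). Joey and Tucker were the highest arrays at CWC25, LARP1, ZMYND11 and MAP3K6, and the lowest at WDR54, PVR, CENPA and REM1. With the dimmer WASL probe set the first 5 genes had r of 0.34 to 0.52 and the last 5 had r of -0.48 to -0.13. The first 5 had lower means in Golden Retrievers, by -0.71 to -0.26, and the last 5 higher ones, by 0.15 to 1.17. Their r thus hold the breed contrast by which WASL was chosen. They are the extremes of 11142 values from 10 arrays and were not tested. At TKT the signals were 10.71 in Tucker and 11.67 to 12.78 in the other Golden Retrievers, against 10.42 to 11.33 in non-Golden Retrievers.

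The Golden mix DD1 was set beside the purebred dogs without a test, since it is 1 array. Its signal lay within the Golden Retriever range at 13 of the 16 tested probe sets and within that of the 3 non-Golden Retrievers at 8. The range of 6 dogs is the wider one by its number. At the 3 brighter CTTN probe sets DD1 had 12.55, 9.29 and 8.96, which is 0.064, 0.14 and 0.039 above the Golden Retriever means and 0.19, 0.36 and 0.53 log2 units under the non-Golden Retriever means. At ARPC2 DD1 had 13.54, above all Golden Retrievers and within the 13.23 to 13.56 of the non-Golden Retrievers.

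The wider machinery was read with 79 further genes, of which 62 had a tested probe set. With the brightest probe set of each gene, 30 had a higher and 32 a lower mean in Golden Retrievers, with a median of -0.0052 beside -0.018 over all genes, and 0 of 62 passed an adjusted p under 0.05 by limma. At an unadjusted p under 0.05, 1 of 62 was called, where 6.14% of all genes were. That gene was FMN2, a formin of oocytes and neurons, whose mean signal was 8.60 ± 1.73 in 6 Golden Retrievers and 6.36 ± 1.15 in 3 non-Golden Retrievers (both SD). Its difference was 2.24 (SE 0.97, limma adjusted p = 0.774). The Golden Retrievers other than Tucker had 8.52 to 9.83, Tucker had 5.21, and the non-Golden Retrievers had 5.04 to 7.13. Without Tucker the difference was 2.92, and without Joey it was 1.58.

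Among all 122 tested probe sets of these further genes 6 (4.92%) reached an unadjusted p under 0.05, a smaller share than the 6.32% of all tested probe sets, and 0 an adjusted p under 0.05. The groups were apart at 3 of 122 (TRIP10, NCKAP1 and ABI1), against 2.45% of all. The 6 belong to FMN2 and to genes of which a brighter probe set did not reach it. TRIP10, an F-BAR protein that links CDC42 to N-WASP, had at its dimmest probe set 6.58 ± 0.17 in 6 Golden Retrievers and 7.27 ± 0.28 in 3 non-Golden Retrievers (both SD), with no overlap. Its difference there was -0.69 (SE 0.16, limma adjusted p = 0.774), while its other probe sets had -0.39 (SE 0.24, limma adjusted p = 0.797) and -0.24 (SE 0.22, limma adjusted p = 0.862), with overlap. NCKAP1, a scaffold of the WAVE complex, had differences of -0.66 (SE 0.21) and -0.39 (SE 0.17) at its dimmer probe sets, and of -0.16 (SE 0.17, limma adjusted p = 0.893) at its brightest.

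ABI1, which joins WAVE to its complex, differed in the other direction at its dimmest probe set, by 0.49 (SE 0.18), with 6.16 to 6.67 in Golden Retrievers and 5.61 to 6.15 in non-Golden Retrievers. Its brighter probe sets had differences of -0.20 and 0.013. ENAH, an elongation factor of the Ena/VASP family, differed by -0.36 (SE 0.16) at a dimmer probe set, by -0.37 at its brightest and by 0.29 and 0.14 at the dimmest pair. The limma adjusted p of each of these 6 probe sets was 0.774. With 3 dogs in 1 group, a difference that did not pass is not shown to be absent.

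By role, the promoters of the WASP and WAVE families other than WASL ran from JMY, at -0.30, to WAS, the family member of blood cells, at 0.29. Both ends are signals near background, with JMY above the 40th percentile on 3 of 10 arrays and WAS on 6. WASL, chosen for its lower signal, was left out of their count, and 4 of the 5 other tested genes had a lower mean in Golden Retrievers, with a median of -0.097. The partners and activators of N-WASP ran from TRIP10, at -0.39, to the adaptor GRB2, at 0.18, with 6 of 10 lower and a median of -0.067. The WAVE complex ran from ABI2, at -0.18, to NCKAP1L, at 0.24, with 3 of 8 lower and a median of 0.011. NCKAP1L was also dim, above the 40th percentile on 8 of 10 arrays. Of the WASH complex, which works on endosomes, all 4 tested partners had a lower mean, led by WASHC4 at -0.31, with a median of -0.11.

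The 10 subunits of the ARP2/3 complex ran, besides ACTR2, from ARPC3 at -0.16 to ARPC1A at 0.13. Of these 8 of 10 had a lower mean, with a median of -0.022 against -0.018 over all genes. Branch stabilizers and inhibitors ran from GMFB, at -0.41, to GMFG, at 0.047, with 5 of 7 lower and a median of -0.25. Formins ran from FHOD1, at -0.32, to FMN2, with 3 of 8 lower and a median of 0.25. The other nucleators (SPIRE1, SPIRE2 and LMOD2) were 0 of 3 lower, with LMOD2 the highest at 0.22. LMOD2 signals were near background, above the 40th percentile on 5 of 10 arrays. The genes of actin, its monomers, capping and severing ran from ENAH, at -0.37, to EVL, at 0.23, with 6 of 14 lower and a median of 0.031. In all of these lists 0 genes passed an adjusted p under 0.05 by limma.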

How the data were processed

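Cultured hemangiosarcoma cells of 10 dogs were profiled on Affymetrix Canine_2 arrays, 1 per dog. The authors deposited log2 signals made by RMA (affy, by their processing notes), quantile normalized over the 10 arrays, with versions not given in the sources used here. No detection calls or scanner intensities were used here. Of 43035 probe sets, 111 controls were left out, and a probe set entered the test when 3 or more arrays had it above their own 40th percentile, which held for 26891.

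Groups came from the labels. Differences were fitted with limma 3.58.1 in R 4.3.3, 6 Golden Retrievers against 3 non-Golden Retrievers, with the Golden mix left out, two-sided, adjusted by Benjamini-Hochberg over all tested probe sets. The fit was tested on simulated data, with changes larger than the breed differences of the member genes. That check does not show how often differences as small as theirs would be called. Correlations were two-sided permutation tests with 100000 draws (Python 3.11.15, numpy 2.4.6). The number of arrays limits the precision.

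Genes were named by the platform annotation, in which 29254 probe sets carry 1 symbol, 439 several and 13231 none. Of 15115 symbols, 14314 were found by gene ID in RefSeq (UU_Cfam_GSD_1.0). No build is named for the deposited values, so no coordinates are given. Where 1 value per gene was needed, the tested probe set of highest mean stood for it. All member probe sets were named, with list genes at an unadjusted p under 0.05 or at either end of their list, and the 5 genes most like and the 5 most unlike WASL. The members and lists were chosen with earlier results of these data known. Alternatives were no filter, a variance filter, the methods' t-test, other scalings, the Golden mix in either group, dogs left out and other probe sets, and, chosen after seeing the data, Tucker and Joey left out.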

Additional observations from a re-analysis of the deposited data

Results flagged for a closer look

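In Golden Retrievers 3 of 48 probe sets and control gaps that were checked had 1 dog far from the other 5, by the gap to the nearest dog over the whole range (Dixon's ratio). Chance gives this in about 1 of 20 groups. ARPC2 had 13.07 in ChadG4, against 13.34 to 13.45 in the others (gap 0.702 of the range). FMN2 had 5.21 in Tucker, against 8.52 to 9.83 (gap 0.716 of the range). EIF5A2, among the genes most like WASL, had 7.61 in Tucker, against 6.73 to 6.94 (gap 0.760 of the range). It was picked by its r with the brighter WASL probe set, where Tucker was also the highest Golden Retriever, so it is not a separate case. The group of 3 non-Golden Retrievers is too small for this check. Other values outside the check also set 1 Golden Retriever apart, so its count is not one of all such cases. In Tucker ARPC1B had 10.502, against 11.53 to 11.89 in the other Golden Retrievers, and ARPC4 had 9.05, against 10.03 to 10.46. The second beta-actin gap was 2.38 in Tucker, against 1.35 to 1.69. DSTN had 11.52 in ChadG4, against 12.81 to 13.22. These were picked after their values were seen and were not tested.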

How the results depend on the processing

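In the settings tried the WASL differences kept their sign, and the dimmer probe set moved past 1 SD once, to -0.40 with the Golden mix counted as a non-Golden Retriever. A change of filter or of test leaves a difference of means as it is. WASL was also chosen by this difference, so the kept sign is a description only. No tested probe set of another member passed an adjusted p under 0.05 in any setting. The count over all probe sets at that threshold was 2 by the methods' t-test, 0 with the Golden mix as a non-Golden Retriever (922 at an unadjusted p under 0.05), 2 without ChadG4 and Dal4, 7 without Tucker and Joey, and 1 to 2 with 1 dog left out, the 2 being without Joey. At an unadjusted p under 0.05 it was 679 in the third of probe sets with highest variance, where fewer were tested, 1080 without ChadG4 and Dal4, and 968 (without Dal4) to 3144 (without ChadP9) with 1 dog left out. The cause was not tested.

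Small differences turned sign. WASF1 gave 0.0092 when quantile normalized again and 0.023 as the mean of its probe sets, ARPC5 gave 0.036 as such a mean, and with females left out the dimmer probe sets gave -0.047 (WASF1) and -0.10 (ARPC5). With the Golden mix as a Golden Retriever ACTR3 gave 0.0020 and ARPC2 0.013. Without ChadG4 and Dal4, ACTR3 gave 0.033, ABI2 0.081 and FHOD1 0.014, and without Tucker and Joey, GMFG gave -0.093 and EVL -0.0077. With 1 dog left out, ACTR3 ran from -0.082 to 0.036, ARPC2 from -0.079 to 0.087, the brighter ARPC5 probe set from -0.16 to 0.22 and the dimmer from -0.026 to 0.35, the dimmer WASF1 probe set from -0.024 to 0.24, ABI2 from -0.30 to 0.043, FHOD1 from -0.67 to 0.20 and GMFG from -0.040 to 0.20.

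The count of members that moved with WASL was 0 with the dimmer WASL probe set, 0 with the mean of all probe sets, 0 without Tucker and Joey, and 0 to 1 with 1 dog left out. With the dimmer WASL probe set r was -0.19 for WASF1, 0.15 for WASF2 and 0.41 for ACTR2, and with the means it was -0.22 for WASF1 and 0.057 for ACTR2. Without Tucker and Joey it was 0.16 for WASF2, 0.51 for ACTR2, 0.41 for ACTR3, 0.10 for ARPC2 and 0.089 for ARPC5. With 1 dog left out r ran from -0.55 to 0.054 for ACTR2, -0.35 to 0.033 for ARPC2, -0.074 to 0.57 for WASF1 and -0.47 to 0.020 for WASF2.

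No paired analysis was possible, because each array came from a different dog and the breed groups share no dog. Signals near the 40th percentile, such as those of Golden Retrievers at the dimmer WASL probe set, are close to background. With 3 dogs of 3 breeds, breed cannot be told from dog.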
